A study of Mus musculus with 12 samples.

Results

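The troponin genes of the embryonic mouse heart were examined across a conditional Hira mutation and 2 stages of development. They are the 8 genes Tnni1, Tnni2 and Tnni3 for troponin I, Tnnt1, Tnnt2 and Tnnt3 for troponin T, and Tnnc1 and Tnnc2 for troponin C. The members were taken by symbol, and all 8 were found among the 20368 genes of the deposited value table. The family was selected on measured values of these same libraries, namely the mutant against control differences of Tnni2, Tnnt3 and Tnnt1, so for these 8 genes that contrast, the number of calls in it included, is a description from which nothing is read, and no p-value is given for it. The change between stages and the isoform proportions between stages were not used in the choice and were tested. These tests use the same libraries as the mutant against control contrast, so they are not fully independent of the choice.

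The control hearts were Mesp1Cre;Hira+/fl and the mutant hearts Mesp1Cre;Hira-/fl, all of the CD1 strain (a CD1-ICR background in the study's methods), and hearts were collected at E11.5 and E12.5 (embryonic days 11.5 and 12.5). HIRA is a histone chaperone that deposits the variant histone H3.3. All 4 groups therefore carried the Mesp1Cre allele and 1 floxed Hira allele, and the mutants carried a null Hira allele in place of the wild-type one. Mesp1Cre is active in the early mesoderm that forms the cardiac progenitors, so cells of the heart that come from other sources keep their floxed allele. Each group had 3 libraries, and nothing in the labels states whether a library came from 1 embryo or from a pool, so the spread between libraries may be in part technical. In RNA from whole hearts, fewer cells of a type and less RNA per cell cannot be told apart.

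The troponin complex sits on the actin thin filament of striated muscle and makes contraction depend on calcium. Troponin C binds calcium, troponin I holds the filament in the inhibited state, and troponin T ties the complex to tropomyosin. Each subunit comes in isoforms from separate genes: Tnni1 and Tnnt1 are the slow skeletal isoforms, Tnni2, Tnnt3 and Tnnc2 the fast skeletal isoforms, Tnni3 and Tnnt2 the cardiac isoforms, and Tnnc1 is shared by slow skeletal and cardiac muscle. The embryonic heart normally uses Tnni1 as its main troponin I before Tnni3 takes over around birth.

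The libraries held between 11994148 and 17483982 counts, with the lowest total in E11.5 mutant 3. Levels are given as CPM, the count scaled by the TMM-scaled library size, and as RPKM, CPM per kilobase of the deposited gene length, where genes are compared with each other. The floxed gene itself was at 78.1 ± 8.89 CPM in E11.5 controls and 64.7 ± 8.42 CPM in E11.5 mutants, and at 75.1 ± 13.1 and 73.7 ± 5.19 CPM in the E12.5 groups (SD, n = 3). Hira reads are counted over the whole gene, so these values do not check the loss of the floxed exon. All 14 cardiomyocyte genes examined, such as Myh7 and Myl2, were present in every library at a summed 23683 to 32405 CPM. From Y-linked genes, the E11.5 controls were all male and 1 of the 3 E11.5 mutants was male, whereas each E12.5 group had 1 male. At E11.5 sex and genotype are therefore partly confounded. E11.5 mutant 3 was at 43.4% of the highest Y-linked level, and the other male libraries at 65.2% to 100%. If libraries were pools, those read as male may hold both sexes.

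The 8 genes lie in 3 pairs and 2 single loci of the GRCm38 genome, in the coordinates of the deposited files. Tnni2 at chr7:142441808-142444410 and Tnnt3 at chr7:142498836-142516009 are both on the plus strand, with 54425 bases and the gene Lsp1 between them. Tnnt1 at chr7:4504570-4516382 and Tnni3 at chr7:4518305-4524229 are both on the minus strand and only 1922 bases apart. Tnni1 at chr1:135783065-135810989 and Tnnt2 at chr1:135836386-135852260, on the plus strand, are 25396 bases apart. Tnnc1 lies alone at chr14:31208312-31211729 and Tnnc2 at chr2:164777161-164779967. Each of the 3 troponin I genes thus lies beside a troponin T gene. Tnnc2 overlaps Ube2c on the opposite strand over 1662 bases, Tnnc1 overlaps Nisch over 3418 bases, Tnnt3 overlaps Prr33 over 7936 bases, and Tnni3 overlaps Dnaaf3 on the same strand over 1297 bases. Whether the counting used strand is not given in the sources used here, so reads of these overlaps cannot be assigned with certainty.

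The promoters of the closest pair, Tnnt1 and Tnni3, are shown because these neighbours differed in the mutants: Tnnt1 was lower and Tnni3 was not. The sequences are the 250 bases before the RefSeq start site on GRCm38.p6, at chr7:4515976-4516225 for Tnnt1 and chr7:4522529-4522778 for Tnni3, both read from the minus strand. Capitals mark the letters CANNTG (an E-box, the core bound by basic helix-loop-helix factors), searched on both strands.
Tnnt1: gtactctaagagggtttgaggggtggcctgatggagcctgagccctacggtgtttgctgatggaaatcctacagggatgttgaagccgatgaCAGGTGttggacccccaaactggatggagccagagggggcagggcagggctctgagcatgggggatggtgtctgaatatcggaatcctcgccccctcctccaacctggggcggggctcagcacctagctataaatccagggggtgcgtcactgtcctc
Tnni3: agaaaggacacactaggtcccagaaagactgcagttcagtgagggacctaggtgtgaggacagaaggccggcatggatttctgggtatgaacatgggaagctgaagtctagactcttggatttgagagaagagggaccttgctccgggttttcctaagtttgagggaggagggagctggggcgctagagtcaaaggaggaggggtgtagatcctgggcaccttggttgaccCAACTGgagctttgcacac
Each window held CANNTG at 1 place, and 66.2% of the 32851 windows of this length in the RefSeq table held it at least at 1 place. The letters GAGAGAGA, found in 3.26% of all windows on either strand, were in neither window, nor were the letters AAGTG, the core of the NK2 homeodomain motif, found in 40.7%. Windows were held for 6 of the 8 genes, Tnni2 and Tnnt3 being the others. A match or its absence says nothing here about binding.

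Of the 8 genes, the fast skeletal troponin I gene Tnni2 had the greatest difference between genotypes. Tnni2 was at 44.6, 56.7 and 101 CPM in the E11.5 controls and at 208, 197 and 344 CPM in the E11.5 mutants. At E12.5 the controls were at 54.0, 48.1 and 67.6 CPM and the mutants at 364, 333 and 303 CPM. Every mutant library was thus above every control library at both stages, and the highest value of any control, in E11.5 control 3, stayed below the lowest of any mutant. The difference in level came to a log2 fold change of 1.88 (SE 0.33), a 3.69-fold higher level, at E11.5 and 2.57 (SE 0.12), 5.96-fold, at E12.5. Without E11.5 control 3, the E11.5 value was 2.30, and with a term for sex it was 2.35. As each library was left out, the value ranged from 1.58 to 2.30 at E11.5 and from 2.47 to 2.72 at E12.5. The only male E11.5 mutant, library 3, was at 344 CPM against 44.6 to 101 CPM in the 3 male controls.

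The other troponin I genes were abundant and nearly level. Tnni1, the slow isoform that serves as the main embryonic troponin I, was at 1941, 1831 and 2309 CPM in E11.5 controls and 1675, 1896 and 2447 CPM in E11.5 mutants. The E12.5 controls were at 1651, 1755 and 1776 CPM and the E12.5 mutants at 1898, 2023 and 1939 CPM, so the E12.5 groups did not overlap but lay close, with a log2 fold change of 0.19 (SE 0.07). Tnni3, the cardiac isoform, had overlapping groups at both stages, from 557 to 918 CPM at E11.5 and from 644 to 798 CPM at E12.5. Its log2 fold change was -0.17 (SE 0.19) at E11.5 and 0.09 (SE 0.09) at E12.5. At E11.5, library 3 of each genotype had the highest level of both Tnni1 and Tnni3 in its group.

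Among the troponin T genes, the fast isoform was higher and the slow isoform lower in the mutants on average. Tnnt3, the fast isoform, was at 8.89, 20.0 and 11.9 CPM in E11.5 controls and 16.9, 48.1 and 36.1 CPM in E11.5 mutants. At E12.5 the controls were at 2.90, 3.67 and 21.0 CPM and the mutants at 45.6, 16.2 and 28.6 CPM. The mutants were higher on average at both stages, but the groups overlapped each time. E11.5 control 2 lay above E11.5 mutant 1, and E12.5 control 3 lay above E12.5 mutant 2. The log2 fold change was 1.31 (SE 0.39) at E11.5 and 1.72 (SE 0.58) at E12.5, and the latter was 3.20 (SE 0.39) without E12.5 control 3. As each library was left out, the value ranged from 0.96 to 1.70 at E11.5 and from 1.29 to 3.20 at E12.5. E12.5 control 3 was the only male of its group, and the only male E12.5 mutant was also the highest in Tnnt3, so that the mutant stood above the control within each sex.

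Tnnt1, the slow isoform, was lower in the mutants. Its levels were 398, 237 and 384 CPM in E11.5 controls and 203, 163 and 275 CPM in E11.5 mutants, where E11.5 control 2 lay below E11.5 mutant 3. In the E12.5 controls Tnnt1 was at 408, 554 and 634 CPM and in the E12.5 mutants at 329, 303 and 294 CPM, with no overlap. The log2 fold change was -0.67 (SE 0.24), a 1.59-fold lower level, at E11.5 and -0.77 (SE 0.13), 1.71-fold, at E12.5. With a term for sex the E11.5 value was -0.31 (SE 0.27), and the E12.5 value ranged from -0.93 to -0.62 as each library was left out. Markers of erythroid cells were lower in the same E12.5 libraries. Of 11 tested, 8 were called lower in the mutants by edgeR, where 3.03% of all genes were called in either direction. Among the 8 were Slc4a1 (band 3) and Hbb-y (an embryonic beta globin). The summed level of the 11 markers was 2220 to 2975 CPM in E12.5 mutants against 4184 to 6757 CPM in controls. At E11.5, where Tnnt1 was also lower on average, 0 of 11 were called by edgeR, beside 0.115% of all genes. The summed level was then 4553 to 5877 CPM in mutants against 4474 to 5598 CPM in controls. The part of the erythroid difference in the Tnnt1 result was not tested.

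Tnnt2, the cardiac isoform and the most abundant troponin T, was at 3012, 2737 and 3197 CPM in E11.5 controls and 2887, 3088 and 4017 CPM in E11.5 mutants. The E12.5 controls, at 3436, 3452 and 3274 CPM, all lay below the E12.5 mutants, at 3626, 3758 and 4215 CPM. Its log2 fold change was 0.16 (SE 0.16) at E11.5 and 0.20 (SE 0.07) at E12.5. The Tnnt2 difference at E12.5 was small beside those of Tnnt3 and Tnnt1.

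Troponin C came almost wholly from Tnnc1. Tnnc1 was at 1319, 1229 and 1679 CPM in E11.5 controls against 1073, 1155 and 1710 CPM in E11.5 mutants. At E12.5 the controls were at 1023, 1082 and 1220 CPM, against 1151, 1254 and 1285 CPM for the mutants. The groups overlapped at both stages, with log2 fold changes of -0.10 (SE 0.20) and 0.16 (SE 0.08). Tnnc2, the fast troponin C, had 2, 4 and 6 counts in E11.5 controls against 3, 9 and 4 in E11.5 mutants. At E12.5 the control counts were 1, 18 and 2 and the mutant counts 5, 23 and 12. These are between 0.066 and 1.34 CPM, the groups overlapped, and at E11.5 the gene did not reach the minimum level for a fit. Its E12.5 log2 fold change was 0.99 (SE 0.77), and 3.04 (SE 0.86) without E12.5 control 2. The value ranged from 0.43 to 3.04 as each library was left out, so it depended on single libraries. Tnnc2 was thus near the limit of detection in mutant hearts in which Tnni2 was at 197 CPM or more, and its few reads cannot be told from those of Ube2c, which had 2291 to 3709 counts per library.

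**Figure D1:**
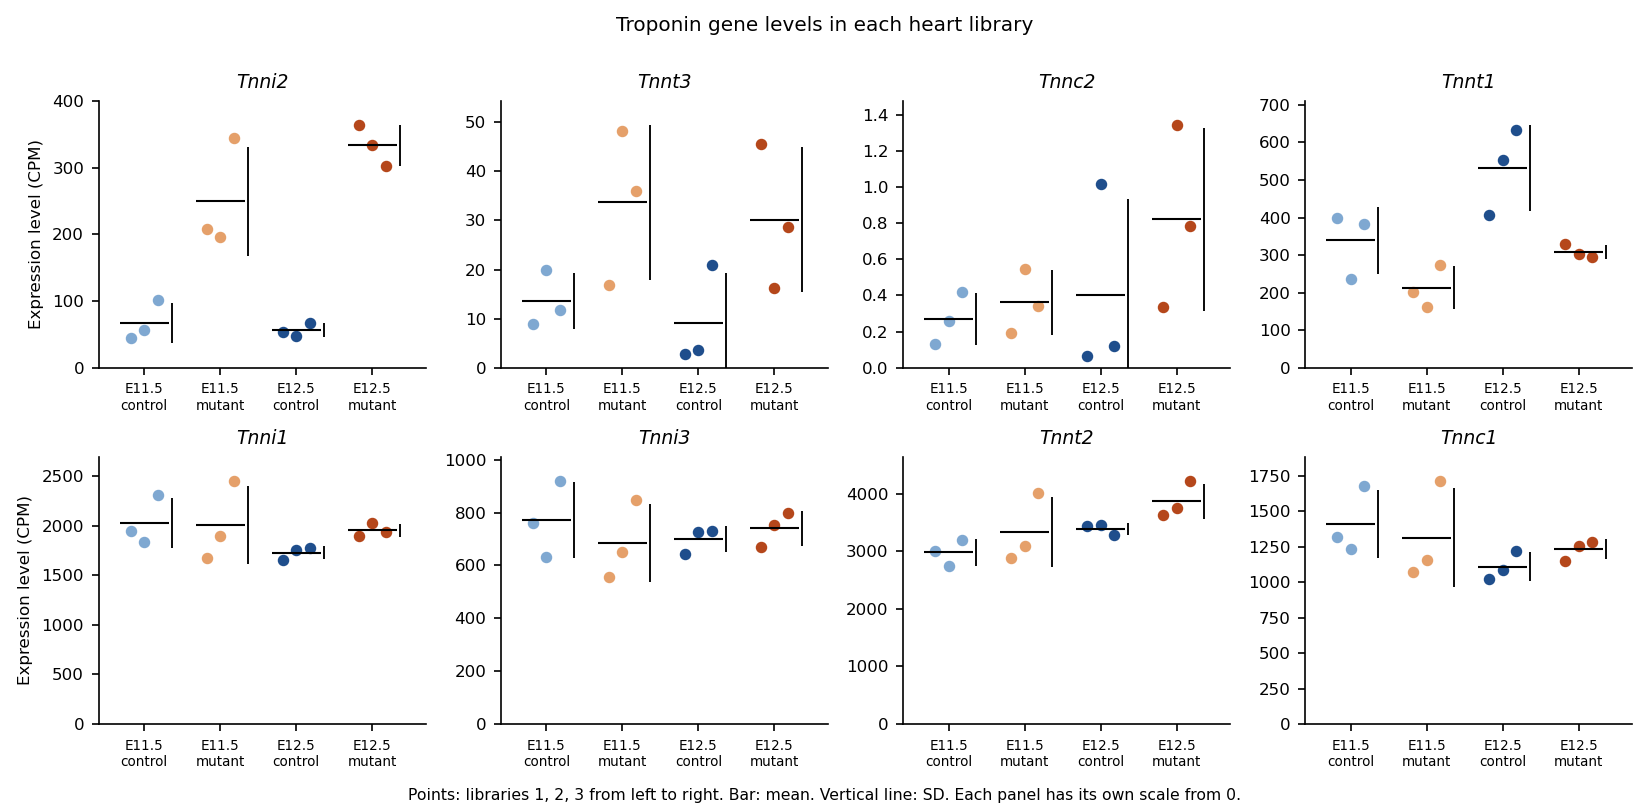
Level of each troponin gene in CPM (vertical axes, each from 0) in the 3 libraries of each of the 4 groups, with the mean and SD (lines cut at 0). Tnni2 is the gene whose mutant libraries, 197 to 364 CPM, lie above all control libraries, 44.6 to 101 CPM. The E12.5 Tnnt1 mutants lie below the controls, and Tnnt3 and Tnnc2 overlap.

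The contrasts that chose the family can also be given as counts, as a description only. A gene was called when the adjusted p of edgeR's quasi-likelihood test across all genes was at most 0.05 and the fold change at least 1.5. At E12.5, 2 of the 8 troponin genes met this rule, Tnni2 (higher) and Tnnt1 (lower), where 3.03% of all 12256 genes tested did. Groups did not overlap for 4 of the 8, Tnni1, Tnni2, Tnnt1 and Tnnt2, against 26.4% of all genes. At E11.5, 0 of the 7 tested troponin genes were called (edgeR), where 0.115% of 12197 genes were, 3 of the 7 and 1252 of all genes had an unadjusted p under 0.05, and DESeq2 called 2, Tnni2 and Tnnt3, and 248 of all genes. Only Tnni2 had groups that did not overlap at E11.5, against 16.3% of all genes. Because these contrasts chose the family, nothing is read from these counts. The median log2 fold change of the tested members was 0.20 at E12.5 and -0.01 at E11.5, beside -0.00 and -0.01 over all genes.

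**Figure D2:**
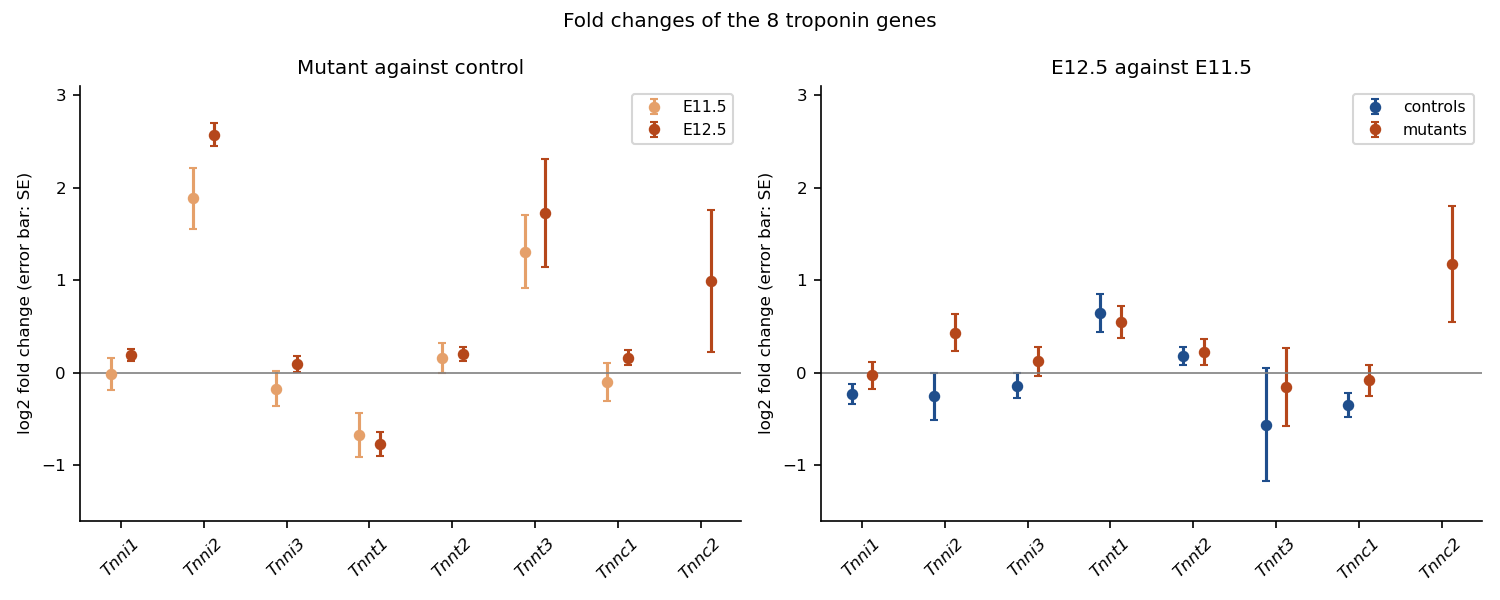
log2 fold changes of the troponin genes with their SE (vertical axes) for mutant against control at each stage (left) and for E12.5 against E11.5 in each genotype (right). Tnni2 and Tnnt3 lie above 0 and Tnnt1 below 0 in both genotype comparisons. Tnnt1 lies above 0 in both stage comparisons, at 0.65 and 0.55. No value is drawn for Tnnc2 where it was not tested.

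Per length, the isoforms made up very different parts of each subunit. Summed RPKM of troponin I was 2856 ± 435 in controls and 3006 ± 653 in mutants at E11.5, and 2484 ± 123 and 3152 ± 84.5 at E12.5 (SD, n = 3). In controls, Tnni1 gave 63.9% ± 1.89 of this sum at E11.5 and 62.4% ± 0.718 at E12.5, Tnni3 gave 32.6% ± 1.65 and 34.1% ± 0.764, and Tnni2 gave 3.47% ± 1.06 and 3.41% ± 0.539. In mutants, Tnni2 gave 12.3% ± 1.62 at E11.5 and 15.9% ± 1.78 at E12.5, while Tnni1 was at 60.1% ± 1.20 and 55.6% ± 0.599 and Tnni3 at 27.7% ± 0.630 and 28.5% ± 2.06. The Tnni2 proportion ranged from 2.44% to 4.56% over the 6 control libraries and from 10.6% to 17.8% over the 6 mutant libraries. The order Tnni1, Tnni3, Tnni2 was the same in all 12 libraries, with wide gaps beside the spread. The larger sum of troponin I in E12.5 mutants, 3062 to 3230 RPKM against 2345 to 2580 RPKM in controls, included 454 to 546 RPKM of Tnni2 in the mutants and 72.0 to 101 RPKM in the controls.

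Troponin T held its order Tnnt2, Tnnt1, Tnnt3 in all libraries as well. Tnnt2 gave 87.0% ± 2.11 of the summed troponin T RPKM in controls and 91.5% ± 0.602 in mutants at E11.5, and 83.1% ± 3.52 and 90.0% ± 1.35 at E12.5. Tnnt1 gave 12.5% ± 2.34 in controls and 7.46% ± 1.08 in mutants at E11.5, and 16.6% ± 3.30 and 9.24% ± 1.07 at E12.5. For Tnnt1, the control libraries at each stage all lay above the mutants of that stage, with 9.91% as the lowest E11.5 control and 8.19% as the highest E11.5 mutant. Tnnt3 was a minor isoform everywhere, at 0.435% ± 0.228 in controls and 0.990% ± 0.492 in mutants at E11.5 and at 0.238% ± 0.264 and 0.753% ± 0.395 at E12.5. In troponin T, the slow isoform was thus lower in mutants by more points than the fast isoform was higher, and the cardiac isoform made up the rest. In troponin I, the fast isoform was the one of larger proportion in mutants, and both others were smaller. The parts of a subunit share a fixed total, so a smaller part need not be a lower level. The log2 fold changes in level were -0.01 for Tnni1 and -0.17 for Tnni3 at E11.5, and 0.19 and 0.09 at E12.5. Tnnc1 gave at least 99.9% of the summed troponin C RPKM on average in each group.

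**Figure D3:**
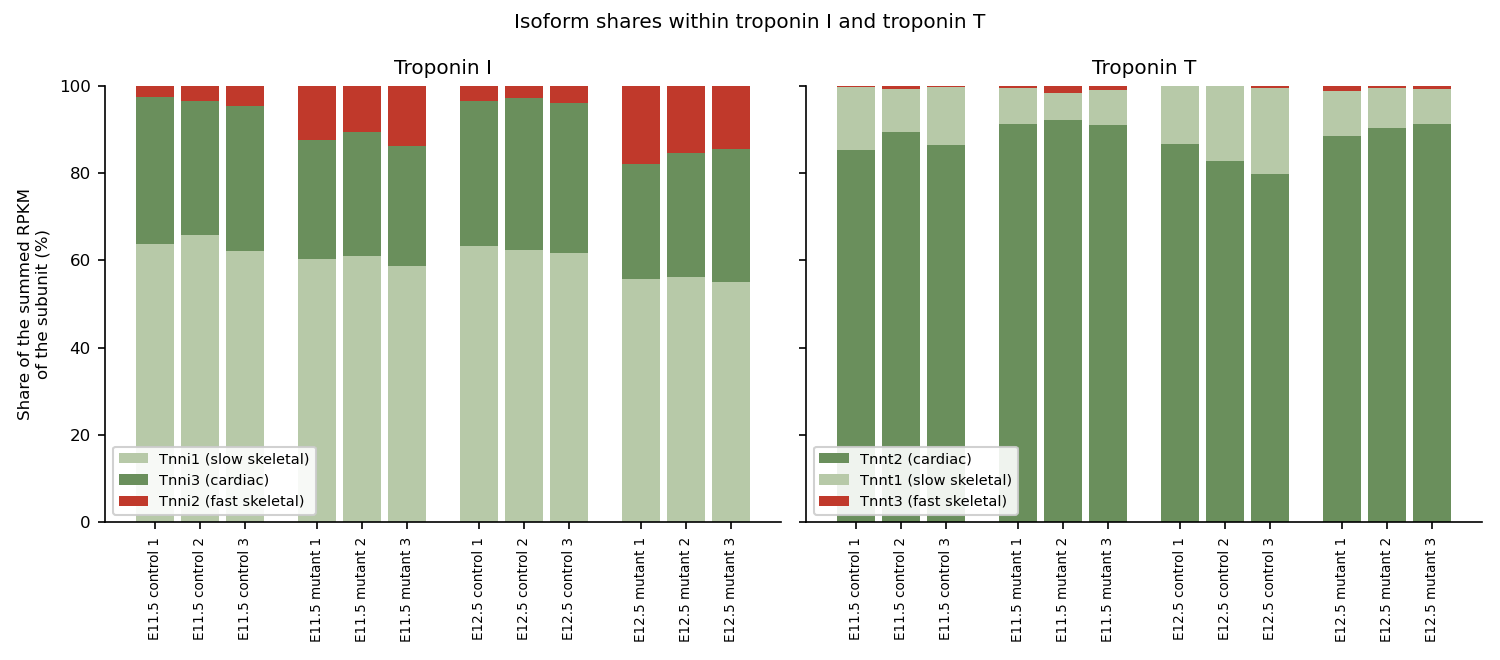
Isoform proportions in percent of the summed RPKM of troponin I (left) and troponin T (right), as stacked bars, 1 bar per library. The Tnni2 part spans 2.44% to 4.56% in the control libraries and 10.6% to 17.8% in the mutant libraries. The Tnnt1 part is smaller in mutants, and the Tnnt3 part is at most 1.53% in any library.

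Over all 8 genes together, the 3 fast isoforms held 0.990% to 1.85% of the troponin RPKM in the 6 control libraries and 4.68% to 7.22% in the 6 mutant libraries. In E12.5 mutants the mean RPKM was 500 for Tnni2, 26.9 for Tnnt3 and 1.18 for Tnnc2. The summed part thus mostly repeats the Tnni2 difference, which was used to choose the family. The troponin genes took 0.668% to 0.937% of all counts, the highest value in E11.5 mutant 3. The subunits were not equally abundant: troponin I per troponin C, as a ratio of summed RPKM, was 1.43 ± 0.030 in controls and 1.62 ± 0.079 in mutants at E11.5, and 1.58 ± 0.082 and 1.80 ± 0.070 at E12.5. Mutants were above controls at both stages without overlap. The troponin I sum includes Tnni2, at 3.47% in controls and 12.3% in mutants at E11.5 and at 3.41% and 15.9% at E12.5. The ratio is therefore not separate from the Tnni2 difference. Troponin T per troponin C was 1.45 ± 0.141 in E11.5 controls and 2.18 ± 0.167 in E12.5 controls, and 1.65 ± 0.118 and 2.05 ± 0.090 in the mutants. Here the stages were apart and the genotypes overlapped. These ratios compare gene lengths as deposited and were not tested.

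Between the stages, none of the troponin genes passed the test in either genotype. In control hearts 0 of 7 were called by edgeR, where 5.31% of 12250 genes were, 2 of the 7 and 4001 of all genes had an unadjusted p under 0.05, and DESeq2 called 1, Tnnt1, and 805 of all genes. Groups did not overlap for 4 of the 8 genes, against 37.4% of all genes: Tnnt1 and Tnnt2 higher at E12.5, Tnni1 and Tnnc1 lower. The control log2 change from E11.5 to E12.5 was 0.65 (SE 0.21) for Tnnt1, with an edgeR adjusted p of 0.0635. This p was 0.028 with no filter on low counts, and DESeq2 gave 0.012, so the call depended on the tool and the filter. For Tnnc1 the change was -0.35 (SE 0.13, edgeR adjusted p = 0.103), for Tnni1 -0.23 (SE 0.11, edgeR adjusted p = 0.178) and for Tnnt2 0.18 (SE 0.10, edgeR adjusted p = 0.224). For Tnni2 the control change was -0.26 (SE 0.26, edgeR adjusted p = 0.520), for Tnni3 -0.14 (SE 0.14, edgeR adjusted p = 0.506) and for Tnnt3 -0.56 (SE 0.61, edgeR adjusted p = 0.560). Without E12.5 control 3, the only male of its group, Tnnt3 had a log2 change of -2.04 (edgeR adjusted p = 0.0135), but 3 male E11.5 libraries are then set against 2 female E12.5 libraries, so that stage and sex cannot be told apart. With a term for sex and all 6 libraries, the Tnnt3 value was 0.63. Stage cannot be told apart from any difference in handling between the collections, and the controls of the stages also differed in sex.

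In mutant hearts, 0 of 8 troponin genes were called between the stages by edgeR, where 0.523% of 12237 genes were. Of the 8, 1 had an unadjusted p under 0.05, as had 1117 of all genes, and DESeq2 called 0 of the 8 and 226 of all genes. Tnnt1 was the gene without overlap (17.4% of all genes), with a log2 change of 0.55 (SE 0.17, edgeR adjusted p = 0.333). The log2 change was 0.43 for Tnni2 (SE 0.20, edgeR adjusted p = 0.577), 0.23 for Tnnt2 (SE 0.14, edgeR adjusted p = 0.700) and 1.18 for Tnnc2 (SE 0.63, edgeR adjusted p = 0.631). Tnni1, Tnni3, Tnnt3 and Tnnc1 lay between -0.15 and 0.12. Without E11.5 mutant 3, the library of lowest depth, Tnni2 and Tnnt1 were both called by edgeR, at 0.73 (adjusted p = 0.0116) and 0.76 (adjusted p = 0.0183). With all libraries and the edgeR fit used throughout, Tnnt1 had a higher mean at E12.5 in both genotypes and passed the threshold in neither.

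The mutant difference was also compared between the stages by an interaction term over all 12 libraries. Because it is made from the 2 contrasts that chose the family, its values for the troponin genes are a description as well. No troponin gene was called, and 0% of all 12270 genes were (edgeR). At an unadjusted p under 0.05 there were 0 of 8 troponin genes and 552 of all genes, and DESeq2 called 0 of 8 and 40 of all. The greatest value was that of Tnni2, whose mutant difference was larger at E12.5 by 0.68 on the log2 scale (SE 0.38). For Tnnt1 the value was -0.11 (SE 0.31) and for Tnnt3 0.40 (SE 0.88).

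Isoform proportions were compared between the stages by exact permutation of the libraries within each genotype, which allows 400 arrangements and a smallest p of 0.005. The Tnni1 part of troponin I differed by -2.93 percentage points (E12.5 minus E11.5) in the mean of both genotypes, with -1.44 points in controls and -4.42 in mutants (two-sided exact p = 0.015, adjusted over the 8 genes 0.12). The Tnnt1 part of troponin T differed by 2.95 points (exact p = 0.04, adjusted 0.16) and the Tnnt2 part by -2.73 points (exact p = 0.06, adjusted 0.16). The Tnni2 part differed by 1.77 points in the mean (exact p = 0.095, adjusted 0.19), which joined unlike values of -0.059 points in controls and 3.60 in mutants, and the Tnni3, Tnnt3, Tnnc1 and Tnnc2 parts had exact p-values from 0.195 to 0.305. The parts of a subunit share a fixed total, so these tests are not independent of each other. After adjustment no isoform proportion passed the threshold. Without E12.5 control 1, those of Tnni1, Tnnt1 and Tnnt2 each had an exact test adjusted p of 0.04, and without E11.5 control 3 that of Tnni1 did. The deposited lengths are shorter than the exonic length of the annotation, with 1194 against 7752 bases for Tnnt2, and with the latter the differences were 5.49 points for Tnnt1, -4.58 for Tnnt2 and -0.91 for Tnnt3.

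Other genes of fast skeletal fibres were read beside the fast troponins. Of 16 such genes, 9 were tested at E12.5 and 2 were called higher in mutants, beside 371 of 12256 genes called in either direction, namely Casq1 (calsequestrin, the calcium store of fast fibres) and Acta1 (skeletal alpha actin). Casq1 was at 555 ± 133 CPM in E12.5 mutants and 282 ± 108 CPM in controls (log2 fold change 0.99, SE 0.23, edgeR adjusted p = 0.0315), and Acta1 at 369 ± 81.4 and 206 ± 66.5 CPM (0.85, SE 0.20, edgeR adjusted p = 0.0360). The list was chosen with earlier results of these data known, and the study reports Casq1 and Acta1 as upregulated in these mutants. These 2 calls are therefore no independent support. At E11.5, 0 of 8 tested genes of the list were called by edgeR, where 0.115% of 12197 genes were. DESeq2 called 3 of them and 248 of all genes. The E12.5 count was 0 with DESeq2 and without E12.5 control 1, control 2 or mutant 3. Myl1 (a fast and embryonic myosin light chain) was at 46.4, 61.6 and 203 CPM in E12.5 controls and at 201, 207 and 295 CPM in E12.5 mutants (log2 fold change 1.19, SE 0.42, edgeR adjusted p = 0.133). In E12.5 control 3, the library with the high Tnnt3, Myl1 and Casq1 were also the highest of their group, with Casq1 at 406 CPM against 213 and 227 CPM. The median log2 fold change of the 9 genes was 0.50 at E12.5, beside -0.00 over all genes. The 9 genes did not all go this way. Ckm was lower in E12.5 mutants, at 48.3 ± 11.1 against 66.7 ± 2.78 CPM (log2 fold change -0.45, SE 0.13, edgeR adjusted p = 0.0774). Actn3 was at -0.10 (SE 0.30), Atp2a1 at 0.10 (SE 0.42) and Mylpf at 0.17 (SE 0.27). Mybpc2 was at 0.50 (SE 0.21) and Pvalb at 0.96 (SE 0.59). Myh1, Myh2, Myh3, Myh4, Myh8, Ryr1 and Cacna1s were below the minimum level for a fit at E12.5. Ryr1 had 13, 18 and 12 counts in E12.5 controls and 50, 67 and 63 in E12.5 mutants. At E11.5 Ryr1 had 32, 37 and 15 against 53, 27 and 16 counts. Myh3 had 6, 12 and 2 counts in E12.5 controls and 14, 176 and 33 in E12.5 mutants. The E12.5 counts of the other untested genes overlapped.

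Genes that mark the skeletal myogenic programme were near 0 in these hearts. The 8 genes of that list, among them the determination factors Myod1 and Myf5, summed to 1.15 to 2.82 CPM in the 9 libraries other than the E12.5 mutants, and to 2.34 to 6.13 CPM in those mutants. Myod1 had at most 1 count in each E11.5 library, 1, 4 and 0 counts in the E12.5 controls and 4, 17 and 9 in the E12.5 mutants, with the highest in E12.5 mutant 2. That library also had the highest counts of Myh3 (embryonic myosin heavy chain), with 176 against 0 to 33 elsewhere, of Myog, with 39, and of Tnnc2, with 23. E12.5 control 2, the control with 18 Tnnc2 counts, had 4 Myod1 counts, whereas E12.5 control 3, with 341 Tnnt3 counts, had none. E12.5 mutant 2 was the lowest of its group in Tnnt3 and the middle one in Tnni2. Among the 3 E12.5 mutants Tnnc2 had the same order as Myod1, Myog and Myh3, and Tnni2 and Tnnt3 did not. In the myogenic list Pax7 (0, 3 and 1 counts) had this order too. Chrng (12, 17 and 10), Mymk (2, 19 and 1), Myf5 (0, 0 and 3), Chrna1 (3, 9 and 10) and Myf6 (2, 1 and 2) did not. These are orders of 3 libraries, with most counts low, and a shared source of these genes was not tested.

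**Figure D4:**
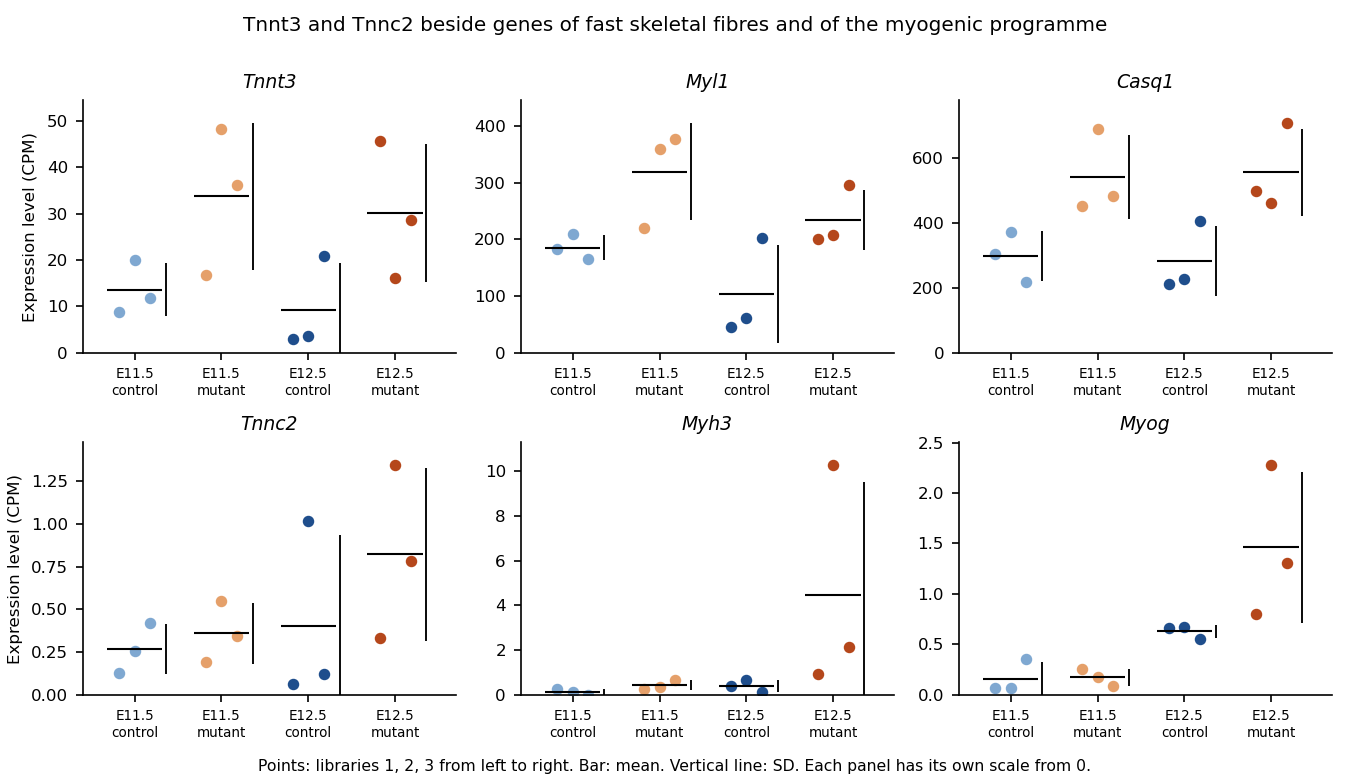
Levels in CPM (vertical axes, each from 0) of Tnnt3 beside Myl1 and Casq1 of fast fibres (top) and of Tnnc2 beside Myh3 and Myog (bottom) in each library, with mean and SD. In E12.5 control 3 Tnnt3 is at 21.0 and Myl1 at 203 CPM, above the other controls of that stage. In E12.5 mutant 2 Tnnc2 is at 1.34, Myh3 at 10.3 and Myog at 2.28 CPM, each the highest of all libraries.

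The partners of troponin on the thin filament were mostly level between the genotypes. Of 10 tested genes at E12.5, 1 was called, where 3.03% of 12256 genes were. This was Lmod3 (leiomodin 3, an actin nucleator at the thin filament), at 40.4 ± 7.37 CPM in mutants and 22.7 ± 3.80 CPM in controls (log2 fold change 0.84, SE 0.15, edgeR adjusted p = 0.0108). At E11.5, 0 of 10 were called by edgeR, where 0.115% of 12197 genes were, and 1 by DESeq2, which called 248 of all genes. Lmod3 was at 47.4 ± 6.69 against 26.6 ± 1.21 CPM at that stage. Tpm1, the main tropomyosin of the heart, was at 2826 ± 147 and 2589 ± 238 CPM at E12.5 (log2 fold change 0.14, SE 0.08, edgeR adjusted p = 0.361). Actc1, cardiac alpha actin, was at 4893 ± 312 and 4777 ± 299 CPM (0.05, SE 0.08, edgeR adjusted p = 0.763). None of the 14 cardiomyocyte genes and none of the tested smooth muscle genes was called at either stage by edgeR. Over all genes the shares called were 3.03% at E12.5 and 0.115% at E11.5. The smooth muscle genes nevertheless summed to 2208 to 2603 CPM in E12.5 mutants and 1609 to 2145 CPM in controls. Most of this sum was Acta2 (smooth muscle actin), at 1721 ± 129 CPM in E12.5 mutants and 1308 ± 217 CPM in controls. The log2 fold change was 0.41 (SE 0.12) for Cnn1 (calponin), 0.15 (SE 0.12) for Tagln and -0.22 (SE 0.08) for Smtn, so the list did not move as a set. The part of these genes in the fast troponin result was not tested.

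Of 8 transcription factors known to act on cardiac muscle genes, 0 were called by edgeR at E12.5 or E11.5. Of all genes, 3.03% were called at E12.5 and 0.115% at E11.5. For so few genes, 0 calls are thus near those shares and do not show that the factors were unaffected. Nkx2-5 was at 81.7 ± 0.495 CPM in E12.5 mutants and 91.7 ± 12.9 CPM in controls (log2 fold change -0.15, SE 0.10, edgeR adjusted p = 0.411). Gata4 was at 250 ± 25.1 and 237 ± 29.0 CPM (0.09, SE 0.10, edgeR adjusted p = 0.654), and Tead1 was at 219 ± 5.83 and 241 ± 22.4 CPM (-0.12, SE 0.08, edgeR adjusted p = 0.423). Of the 22 genes that neighbour the troponin genes, as the nearest 2 on each side, 18 were tested at E12.5 and 17 at E11.5. By edgeR 0 were called, which is again near the shares of 3.03% and 0.115% over all genes. Beyond Tnni2, the E12.5 log2 fold change of Ctsd was -0.10 (SE 0.09) and Syt8 was not tested, and beyond Tnnt3, Mrpl23 and Igf2 had values of 0.10 (SE 0.10) and 0.11 (SE 0.08). Lsp1, between the pair, was at 109 ± 9.55 CPM in E12.5 mutants and 84.5 ± 8.92 CPM in controls, which met the adjusted p (0.0438, edgeR) but not the fold threshold. On the side of Tnnt1, the value of Ppp1r12c was -0.09 (SE 0.07), and on the side of Tnni3, Syt5, with 5 to 23 counts, had -1.17 (SE 0.42, edgeR adjusted p = 0.139).

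The genes most like each variable troponin gene over the 12 libraries were found by Pearson's r of log2(CPM + 0.5) among 12270 genes. The libraries share their groups, so r describes the likeness of the pattern and was not tested. Tnni2 was most like 1700040L02Rik (0.95), Stmn2 (0.95), a tubulin-binding protein best known from neurons, and Rpl3l (0.94), the ribosomal protein form of striated muscle. Tnnt3 was most like Slc9a3r1 (0.93), Myl1 (0.91) and Serpinb6b (0.90). Tnnt1 was most like Ms4a6c (0.93), Gpr183 (0.93) and Kcne3 (0.92), which are low genes, with Ms4a6c at 1.38 ± 0.577 CPM in E12.5 mutants and 3.43 ± 1.15 CPM in controls. For Tnnc2, with 1 to 23 counts, the likest genes reached at most 0.86 (Gm5741). Stmn2 was at 25.3 ± 4.20 CPM in E12.5 mutants and 6.98 ± 2.21 CPM in controls. Stmn2 was picked for its likeness to Tnni2, and Ms4a6c for its likeness to Tnnt1. A mutant difference in the same direction follows from that choice.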

How the data were processed

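RNA of 12 embryonic heart samples was sequenced as paired ends on an Illumina NextSeq 500 according to the study's methods, while the design text names a GAIIx. The submitters' processing notes name the mm10 genome, Bowtie2 and DESeq. The counting program, the annotation and the use of strand are not given in the sources used here.

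The authors deposited a table headed RPKM for 20368 genes, which is treated here as a score, because each value is a whole count multiplied by a gene length and a library factor instead of divided by them. The authors also deposited, for 19424 genes, the average count of each group, an expected count made by averaging the raw counts of 3 libraries. Their fold changes and p-values were not used. From both tables, counts were recovered for 17827 genes (largest distance from a whole number 2.36e-09, library factors fitted on 12450 genes), and 1597 had none.

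For each comparison, genes whose mean RPKM reached 0.5 were tested by edgeR's quasi-likelihood test (edgeR 4.0.16, R 4.3.3) with TMM scaling and Benjamini-Hochberg adjustment, on the 6 libraries of the groups compared, or on all 12 for the difference between stages. Alternatives used limma 3.58.1 on log2(RPKM + 0.5), DESeq2 1.42.0, other filters and scaling, a replicate block, a sex term, and leaving out each library. Both contrasts of mutants share the control libraries with the contrasts of stage, so they are not independent. The scripts were tested on simulated data. Sequences came from RefSeq (GRCm38.p6).

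The 8 members and all gene lists were chosen with earlier results of these data known. Genes named were the 8 members, Hira, the called genes of each list (at most 4) or else the 2 of highest level, the neighbours of Tnni2 and Tnnt3, and the 3 genes most like each of Tnni2, Tnnt3, Tnnt1 and Tnnc2. Nkx2-5, Tpm1, Actc1, Myl1, Myh3, Myog, Myod1, Myf5, Ube2c, Ppp1r12c and Syt5 were named in addition after their values were seen. So were Ckm, Actn3, Atp2a1, Mylpf, Mybpc2, Pvalb, Smtn, Tagln, Pax7, Chrng, Mymk, Chrna1 and Myf6. Ryr1, Cacna1s, Myh1, Myh2, Myh4 and Myh8 were also named after their values were seen. Library depth limits Tnnc2 most.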

Additional observations from a re-analysis of the deposited data

How the results depend on the processing

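Most values kept their direction and their side of the threshold. Counts for mutant against control are a description, since that contrast chose the genes. With all 12 libraries in one fit, 1 troponin gene was called at E12.5 and 1 at E11.5. At E11.5, where 0 were called, 1 was called with no filter on low counts, 1 with a sex term and 2 with DESeq2. Between the control stages 1 was called with no filter and 1 with DESeq2. Leaving out each library gave 0 to 1 called troponin genes between the control stages and 0 to 2 between the mutant stages. Of the fast skeletal fibre genes, 0 were called at E12.5 and 3 at E11.5 with DESeq2, and 0 to 3 at E12.5 as each library was left out. Of the thin filament partners, 1 was called at E11.5 with DESeq2. The stage difference of the isoform proportions, in points, ranged over the left-out libraries from -3.39 to -2.44 for Tnni1, from 2.18 to 3.82 for Tnnt1 and from -3.64 to -1.88 for Tnnt2. With the summed exon length of the annotation it was 5.49 for Tnnt1, -4.58 for Tnnt2 and -0.91 for Tnnt3. The cause of these shifts was not tested.

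Whether the replicate numbers of the labels pair the libraries is not given. Deviations of same-numbered libraries correlated between -0.115 and 0.401, and in no comparison were all above 0.1. At E11.5, replicates 2 and 3 were at 0.401 and 0.269, so these values do not settle the question. With the replicate block, 2 troponin genes were called at E11.5, 3 at E12.5, 1 between the control stages and 0 between the mutant stages. At E11.5 the block called 2 fast skeletal fibre genes and 1 thin filament partner.

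Some log2 changes reversed sign, among them those of Tnnt3, which were -0.56 between the control stages and 0.40 for the difference of the mutant effect. With a sex term, Tnni2 between the control stages was 0.0055, Tnnt3 between the control stages was 0.63, and the difference of the mutant effect between stages was -0.016 for Tnnt2 and -0.26 for Tnnt3. As each library was left out, the change between the control stages ranged from -0.48 to 0.16 for Tnni2 and from -0.26 to 0.0050 for Tnni3. Between the mutant stages it ranged from -0.15 to 0.14 for Tnni1, from -0.015 to 0.30 for Tnni3, from -0.59 to 0.19 for Tnnt3 and from -0.22 to 0.15 for Tnnc1. The difference of the mutant effect between stages ranged from -0.27 to 0.11 for Tnnt1, from -0.042 to 0.19 for Tnnt2, from -0.023 to 1.89 for Tnnt3 and from -0.0077 to 2.59 for Tnnc2. None of these values passed the threshold, other than the calls without 1 library given in the report.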
